A study of Mus musculus with 8 samples.

Results

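The mitochondrial genome encodes a small set of subunits of the respiratory chain, and 7 of these transcripts are described here in brown adipose tissue: ND1, ND3, ND4, ND4L and ND5 of complex I, CYTB of complex III and COX1 of complex IV. They were taken by the name that the platform annotation gives them, from probe sets with 1 gene symbol, the brightest where a gene has several. Each had exactly 1 such probe set, and together they are 7 of 22180 named genes and of 41345 probe sets. Brightness was therefore not used to choose among probe sets of these 7.

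The samples were brown fat of male C57BL/6J mice on normal chow, fasted overnight and then given chow for 1 h, with 5 arrays labelled Abhd15 KO and 3 labelled WT. The mice are described as 14 weeks old in one label and as kept on chow for up to 14 weeks in another. Each array received 200 ng of total RNA from an individual sample, and the arrays were 1-colour Affymetrix Mouse Gene 2.0 ST chips. The deleted part of Abhd15, the cells in which it is deleted and any shared litter or day are not given in the sources used here.

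Every respiring mitochondrion carries copies of a small circular genome whose protein genes all serve oxidative phosphorylation. Complex I takes electrons from NADH, complex III passes them to cytochrome c and complex IV hands them to oxygen, and each of these complexes joins mitochondrially encoded core subunits to many nuclear ones. The genome is transcribed into long precursors that are cut into separate RNAs, mostly at the tRNAs between them. In brown fat the respiratory chain feeds UCP1, which lets protons back into the matrix and so releases the energy as heat.

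Brown adipocyte markers were read above the dim limit, whereas the Abhd15 probe sets did not separate the groups. Of 12 brown adipocyte markers 11 had a single-symbol probe set, and these 11 lay above the dim limit of 2.88 log2 in all 8 arrays. So did 11007 of the 22180 named genes, so that count alone does not identify the tissue. Ucp1 read 12.510 to 12.894 and was among the 5 brightest named genes from outside the mitochondrial genome. The brighter of 2 Abhd15 probe sets read 6.12 ± 0.27 in arrays labelled Abhd15 KO and 6.01 ± 0.19 in WT arrays (SD, n = 5 and 3). The dimmer one read 3.81 ± 0.28 in arrays labelled Abhd15 KO and 3.52 ± 0.74 in WT arrays (exact permutation p = 0.518 for each probe set), so each direction given here is that of the labels. The 16 skeletal muscle markers had a mean between 4.56 and 7.31 in the arrays labelled Abhd15 KO and between 5.28 and 8.04 in WT arrays, and all 16 differed by a negative amount (Abhd15 KO minus WT, median −0.62) without any passing the test. The part of muscle RNA in the results was examined with the muscle mean as a covariate. This left 4 of the 7 differences positive and 3 negative, the same split as without it. The values moved, with a median of 0.011 log2 against 0.004 without the covariate, and ND3 at −0.025 against −0.009. A count of signs of differences this small does not measure the part of muscle RNA. In bulk tissue, fewer mitochondria or cells and less RNA per cell cannot be told apart.

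None of the 7 transcripts passed the test between the groups by limma. Across the 13223 genes above the dim limit in at least 3 arrays, 0 (0%) passed a Benjamini-Hochberg adjusted p of 0.05, and 528 (3.99%) had an unadjusted p under 0.05 by limma. Of the 7 transcripts 0 passed either threshold, 4 had positive and 3 negative differences, and their median difference was 0.004 log2 against 0.006 over all tested genes. In linear terms the fold of Abhd15 KO over WT ran from 0.968 for ND4L to 1.03 for ND1. The 95% confidence intervals of the moderated fit reached folds of 0.825 at the lowest and 1.19 at the highest. With 3 WT and 5 Abhd15 KO arrays the exact two-sided permutation test allows no p below 0.0179, and it is given below for each of the 7 transcripts. Values are log2 intensities with the 3 decimals of the deposited table, because the arrays differ in the last of them.

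**Figure D1:**
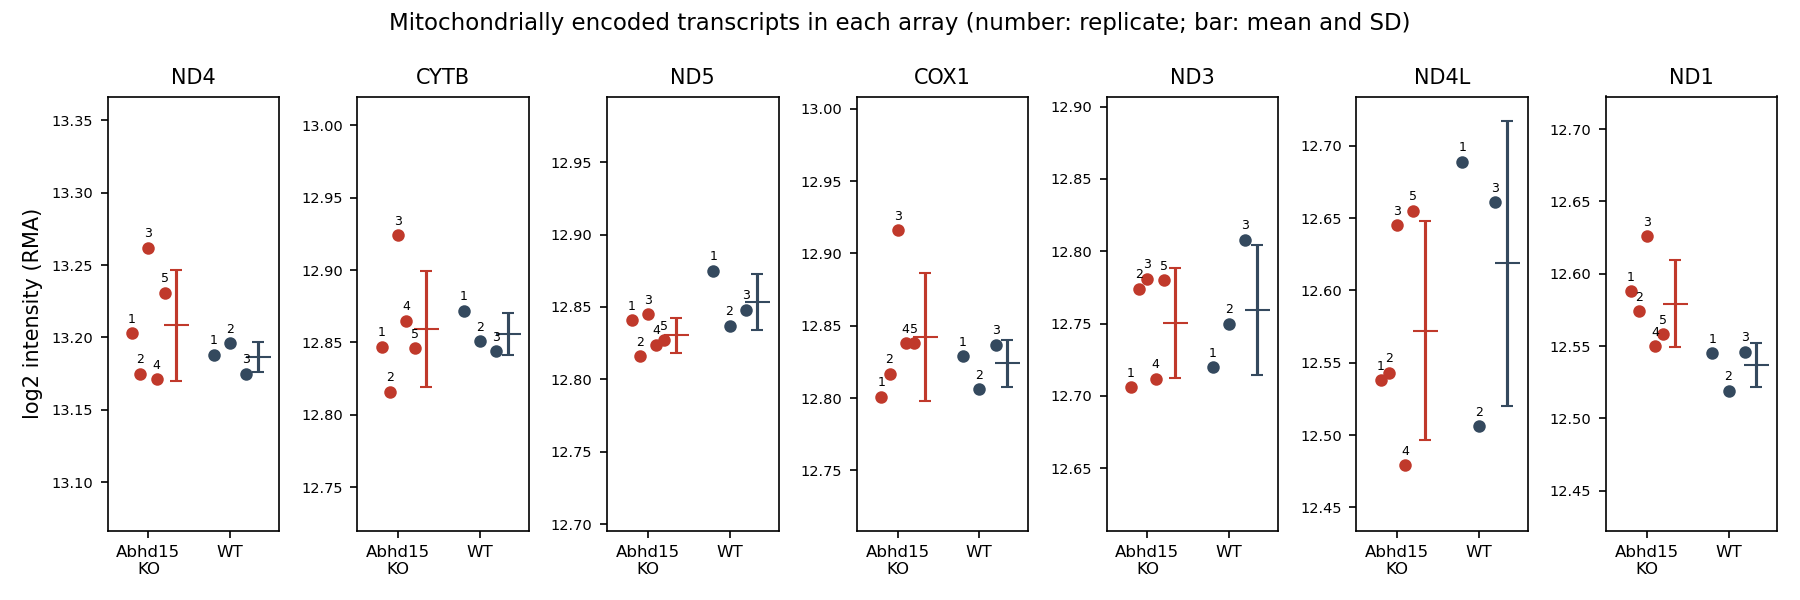
Log2 intensity of the 7 mitochondrially encoded transcripts in each array, with the 5 arrays labelled Abhd15 KO on the left and the 3 WT arrays on the right of each panel. Points carry the replicate number, bars give mean and SD, and every panel spans the same height on the y axis. The points of each transcript lie within 0.21 log2 of each other, with ND4L the widest and ND5 the narrowest.

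ND1, a membrane-arm subunit of complex I next to the site where ubiquinone binds, read 12.588, 12.574, 12.626, 12.550 and 12.558 in replicates 1 to 5 of the arrays labelled Abhd15 KO. WT replicates 1 to 3 read 12.545, 12.519 and 12.546. All 5 arrays labelled Abhd15 KO were above all 3 WT arrays, with 0.004 log2 between the lowest array labelled Abhd15 KO and the highest WT array. The difference was 0.043 (95% confidence interval −0.162 to 0.247, adjusted p = 0.9997 by limma, exact permutation p = 0.0536). ND1 was the 1 transcript of the 7 whose groups did not overlap, and 366 of the 13223 tested genes (2.77%) had groups that did not overlap.

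ND3, a small membrane subunit of complex I, read 12.706, 12.774, 12.781, 12.712 and 12.780 in the arrays labelled Abhd15 KO. WT replicates 1 to 3 read 12.720, 12.750 and 12.808. The groups overlapped, and the WT arrays held the highest value. The difference was −0.009 (−0.218 to 0.200, exact permutation p = 0.786).

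ND4, a proton-pumping subunit of the membrane arm, read 13.203, 13.175, 13.262, 13.171 and 13.231 in the arrays labelled Abhd15 KO. WT replicates 1 to 3 read 13.188, 13.196 and 13.175, inside the range of the other group. The SD was 0.0385 in 5 arrays labelled Abhd15 KO and 0.0106 in 3 WT arrays. The difference was 0.022 (−0.184 to 0.228, exact permutation p = 0.393).

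ND4L, a small subunit whose gene directly precedes ND4 in the mitochondrial genome and shares a transcript with it, varied most among the 7. It read 12.538, 12.543, 12.645, 12.479 and 12.655 in the arrays labelled Abhd15 KO and 12.689, 12.506 and 12.661 in WT replicates 1 to 3. The 8 values fell on either side of a gap of 0.102 log2. Below it were 3 arrays labelled Abhd15 KO and 1 WT array, and above it 2 of each. The difference was −0.047 (−0.277 to 0.184, exact permutation p = 0.446). In ND4 neighbouring values lay at most 0.031 apart. The ND4L probe set (17221871) is numbered close to one shared with the nuclear pseudogene Gm10925 (17221873), whereas the other 6 are numbered between 17532603 and 17532633. Where on the genomes its probes match was not examined.

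ND5, the largest proton-pumping subunit encoded by this genome, varied least. It read 12.841, 12.816, 12.845, 12.824 and 12.827 in the arrays labelled Abhd15 KO and 12.875, 12.837 and 12.848 in WT replicates 1 to 3. All 5 arrays labelled Abhd15 KO lay below the WT mean, and 3 of the 5 below all WT arrays. The difference was −0.023 (−0.226 to 0.180, exact permutation p = 0.0893).

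CYTB, the haem-carrying core of complex III, read 12.847, 12.816, 12.924, 12.865 and 12.846 in the arrays labelled Abhd15 KO. WT replicates 1 to 3 read 12.872, 12.851 and 12.844, all within the range of the other group. Replicate 3 of the arrays labelled Abhd15 KO was the highest of the 8. The difference was 0.004 (−0.203 to 0.211, exact permutation p = 0.946).

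COX1, the catalytic subunit of complex IV where oxygen is reduced, read 12.801, 12.817, 12.916, 12.838 and 12.838 in the arrays labelled Abhd15 KO. WT replicates 1 to 3 read 12.829, 12.806 and 12.837. The same replicate 3 was again the highest, and without it the difference was −0.0005 against 0.018 with all arrays. The confidence interval with all arrays was −0.190 to 0.226 (exact permutation p = 0.625).

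**Figure D2:**
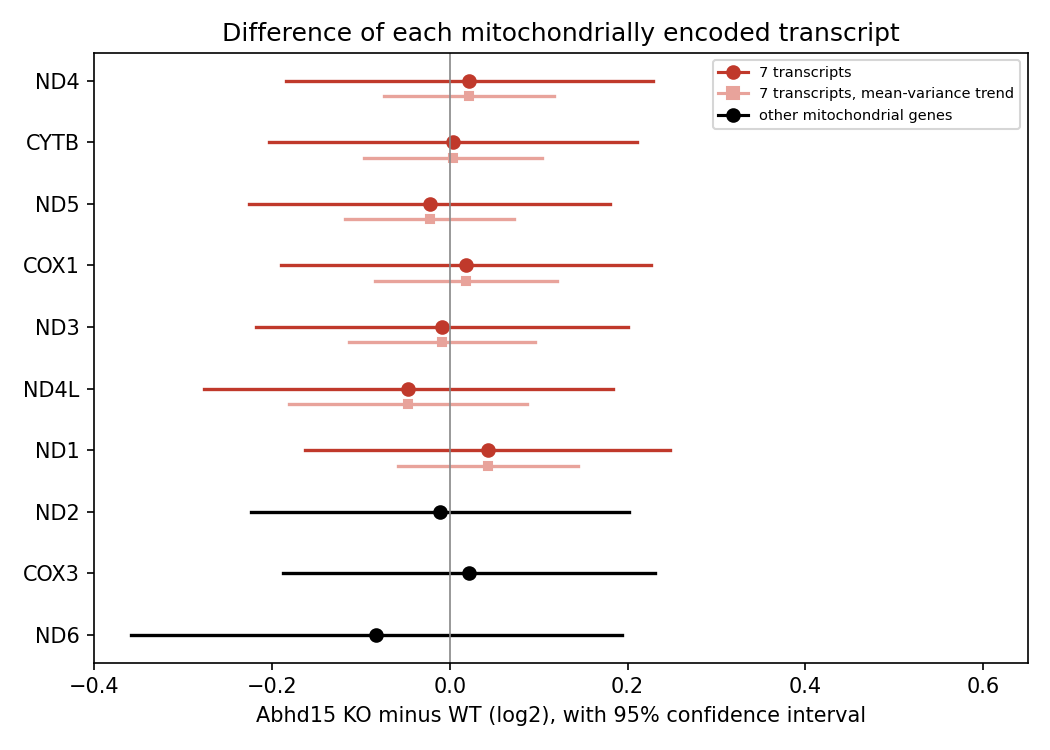
Difference Abhd15 KO minus WT in log2 units with its 95% confidence interval for the 7 transcripts (dark red), the same with a mean-variance trend (light red), and ND2, COX3 and ND6 (black). Every interval spans 0, the points of the 7 transcripts lie between −0.047 and 0.043, and the trend narrows the intervals of the 7.

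The width of these intervals was set mostly by the prior drawn from all genes. Their residual SD about the group means was 0.0150 to 0.0840 log2, with a median of 0.0338. The moderated fit, which draws each gene's SD towards a common prior of 0.207, gave them SDs of 0.123 to 0.140. Interval half-widths were therefore 0.203 to 0.230 log2, against a median of 0.363 over all tested genes. When the prior was allowed to follow brightness (mean-variance trend with robust fitting), the half-widths of the 7 were 0.0949 to 0.134, and 0 of the 7 had an unadjusted p under 0.05 by limma.

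Other genes of the mitochondrial genome did not pass the test either. ND2, another proton-pumping subunit of complex I, read 12.45 ± 0.06 in the arrays labelled Abhd15 KO and 12.47 ± 0.03 in WT arrays (SD, n = 5 and 3), a difference of −0.01 (−0.22 to 0.20). COX3, a core subunit of complex IV, read 12.25 ± 0.05 in the arrays labelled Abhd15 KO and 12.22 ± 0.01 in WT arrays, a difference of 0.02 (−0.19 to 0.23). A probe set shared by ATP6, ATP8 and the nuclear pseudogene Gm10925 differed by −0.01 (−0.24 to 0.22), and one shared by COX2 and the nuclear gene Prf1 by 0.00 (−0.22 to 0.23). The nuclear genome holds copies of mitochondrial sequence, and how far such copies add to a probe set's signal was not tested.

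ND6, the complex I subunit read from the opposite strand to the other protein genes, was dimmer and more variable. It read 9.895, 10.199, 9.908, 9.889 and 9.963 in the arrays labelled Abhd15 KO and 9.875, 10.090 and 10.195 in WT replicates 1 to 3. Replicate 2 of the arrays labelled Abhd15 KO and WT replicates 2 and 3 were high, and the groups overlapped. Its residual SD of 0.142 stood at the 20.3rd percentile of all tested genes, and its difference was −0.08 (−0.36 to 0.19, exact permutation p = 0.464). It is not one of the 7.

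The 7 transcripts stood at the top of the brightness scale in every array. By mean over the arrays ND4 was the brightest of all 22180 named genes, and it held that place in each of the 8 arrays. By the same mean CYTB, ND5 and COX1 held ranks 4, 5 and 6, ND3 rank 8, and ND4L and ND1 ranks 11 and 12. Over all 41345 probe sets the 7 lay at ranks 2 to 32, with 7 of the 50 brightest. A further 23 of those 50 had no gene name in the annotation and 14 were named nuclear genes. Brightness also depends on each probe's sequence and on how many probes a set has, so these ranks do not order the amounts of RNA.

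Ranks moved little between arrays. Among named genes ND1 held ranks 11 to 14, ND3 8 to 9, ND4L 10 to 15, ND5 4 to 7, CYTB 3 to 6 and COX1 4 to 7. The brightest named genes outside the mitochondrial genome were Eif4a1, a translation initiation helicase (13.06), the small nuclear RNA Rn7sk (12.93), Cox6a1, a nuclear subunit of complex IV (12.82), Ucp1 (12.71) and the fatty acid binding protein gene Fabp4 (12.64), each given as its mean log2 intensity over 8 arrays. Ucp1, at 12.664, 12.781, 12.519, 12.811 and 12.894 in the arrays labelled Abhd15 KO and 12.713, 12.510 and 12.765 in WT arrays, covered 0.384 log2, against 0.059 for ND5 and 0.210 for ND4L.

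The distance to the top of each array was short. The brightest probe set of each array read 13.206 to 13.277. ND4 lay 0 to 0.089 log2 below it, ND5 0.373 to 0.419 and ND1, the dimmest of the 7 by mean, 0.626 to 0.732. Quantile normalization gives the arrays nearly the same values at each rank, and in the deposited table the tenth brightest value (rank 10) ranged over 0.071 log2 between arrays and that at rank 20 over 0.068. Between arrays ND5 ranged over 0.059, narrower than both. ND4, ND3, ND1, CYTB and COX1 ranged over 0.091 to 0.115 and ND4L over 0.210, all wider than both. Other ranks near the top were wider than ranks 10 and 20, with 0.090 at rank 2, 0.097 at rank 5 and 0.085 at rank 50. Among all probe sets ND4 held ranks 1 to 2, and its range of 0.091 was close to that at rank 2. Whether the scanner or the probes were near saturation cannot be read from these summarised values and was not tested.

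**Figure D3:**
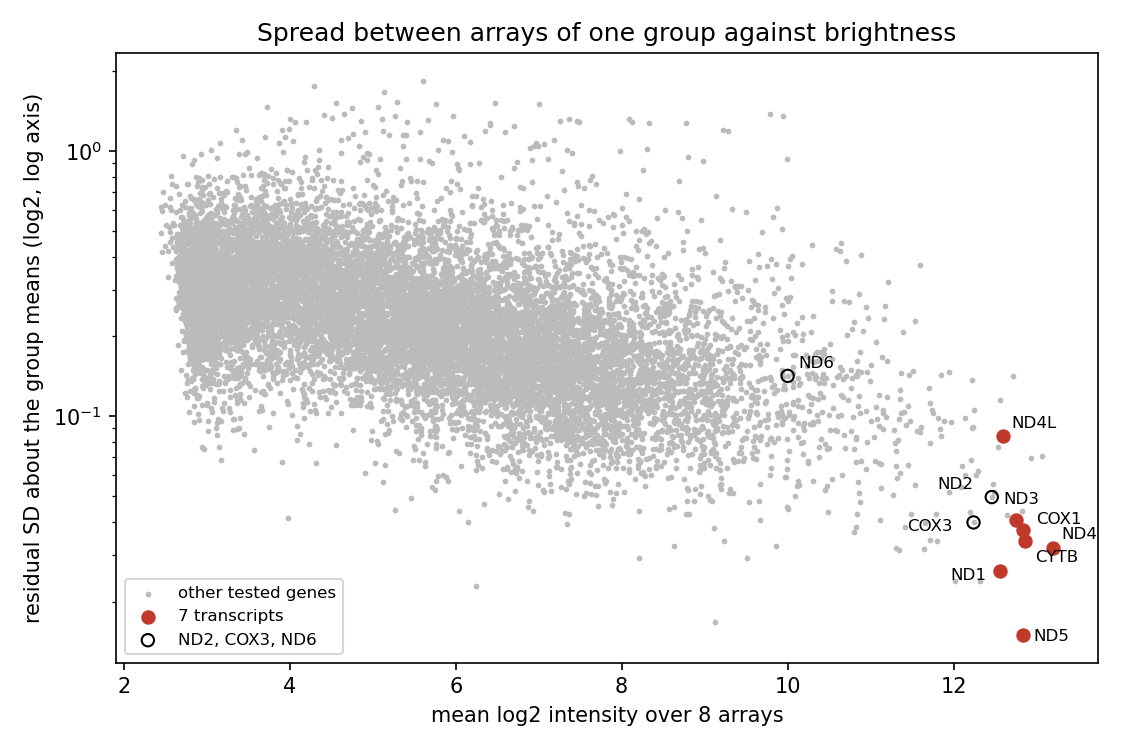
Residual SD about the group means (y, log axis) against mean log2 intensity over 8 arrays (x) for each of the 13223 tested genes, with the 7 transcripts in red and ND2, COX3 and ND6 as open circles. The spread falls towards bright genes, and the 7 lie at the right-hand end between 0.0150 for ND5 and 0.0840 for ND4L.

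The spread of the 7 was among the smallest in the table. ND5 had the smallest residual SD of the 13223 tested genes, at 0.0150 log2. ND1 (0.0260), ND4 (0.0320), CYTB (0.0338), COX1 (0.0373) and ND3 (0.0405) followed within the 28 smallest, which is 0.212% of the tested genes. ND4L, at 0.0840, held rank 552. Without Abhd15 KO replicate 3 the residual SD was 0.0172 for COX1, 0.0182 for CYTB, 0.0163 for ND1 and 0.0226 for ND4, at ranks 4, 5, 2 and 9. ND5 (0.0148) then still held rank 1, ND3 (0.0416) rank 57 and ND4L (0.0844) rank 677.

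Spread falls with brightness in these arrays. Outside the 7 transcripts the median residual SD was 0.309 log2 for genes with a mean under 4, 0.170 for genes between 6 and 8, 0.129 between 10 and 11 and 0.0623 for the 25 genes above 12. Of these 25, ND2 had 0.0496 and COX3 0.0398, and the other 23 are not encoded in mitochondrial DNA. The median of these 23 was 0.0652, their range was 0.0240 to 0.142, and 2 of them lay below the median of the 7 transcripts. Those were Sdha, the flavoprotein of complex II, and the ferritin heavy chain gene Fth1, both at 0.0240, named after their values were seen. The difference in spread between the 7 transcripts and these genes was not tested.

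The 7 transcripts moved partly together across the arrays, and less so without Abhd15 KO replicate 3. Replicate 3 of the arrays labelled Abhd15 KO was above the 8-array mean in 7 of 7 transcripts and was the highest array for ND1, ND4, CYTB and COX1. WT replicate 2 was below the mean in 7 of 7. The mean of the 7 was 12.789, 12.788, 12.857, 12.777 and 12.819 in the arrays labelled Abhd15 KO and 12.817, 12.781 and 12.817 in WT replicates 1 to 3, which gave 12.81 ± 0.03 for the arrays labelled Abhd15 KO and 12.80 ± 0.02 for WT arrays (SD, n = 5 and 3).

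**Figure D4:**
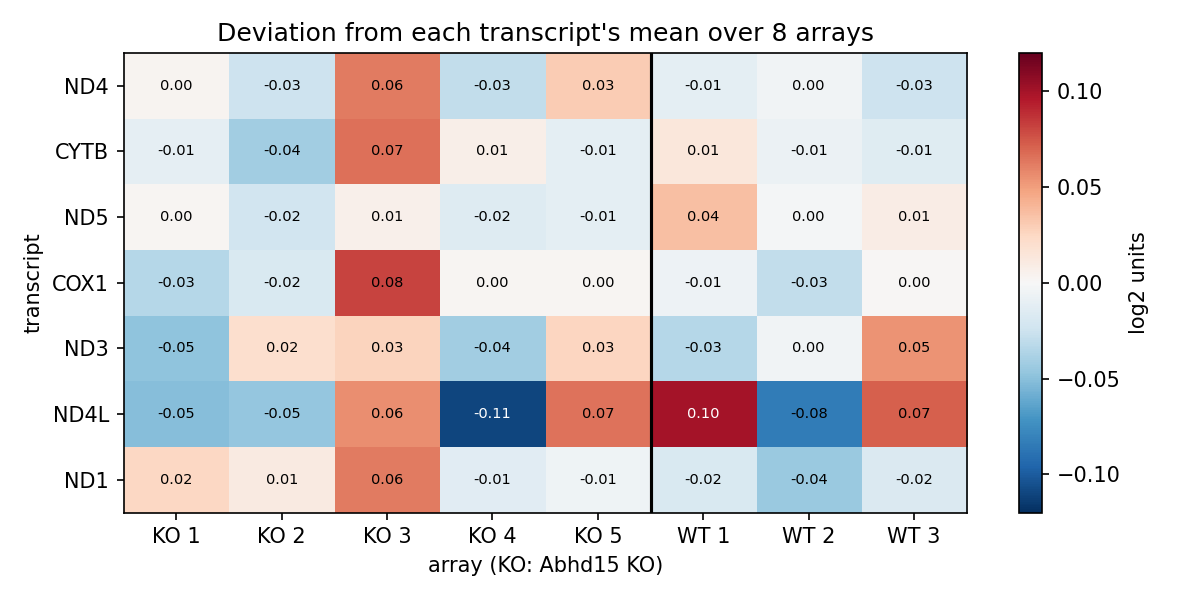
Deviation of each of the 7 transcripts (rows) from its own mean over the 8 arrays (columns), in log2 units, with the 5 arrays labelled Abhd15 KO left of the line and the 3 WT arrays right of it. The column of Abhd15 KO replicate 3 is above the mean in all 7 rows, that of WT replicate 2 below it in all 7, and ND4L has the strongest colours.

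Of the 21 pairs among the 7 transcripts 18 had a positive Pearson correlation over the 8 arrays, with a median of 0.41 and a range of −0.17 to 0.84. Without Abhd15 KO replicate 3 there were 12 positive pairs and the median was 0.038, and the highest pair, CYTB with COX1, was 0.28 instead of 0.84. Arrays were also centred on the mean of 200 genes from outside the mitochondrial genome, the brightest by mean over the 8 arrays. Then 21 of 21 pairs were positive with a median of 0.45. Centring takes 1 shared value per array from all 7, which by itself can make pairs positive. The residual SD of ND5 was 0.0212 after it, against 0.0150 before. These pairs therefore do not show whether the 7 moved together. ND4 and ND4L, which share a transcript, had a correlation of 0.39. These correlations are descriptions over arrays that share 1 normalization. The choice to leave out Abhd15 KO replicate 3 was made after its values were seen, and no other array was left out for the pairs.

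Abhd15 KO replicate 3 also had the lowest mean of the brown adipocyte markers among the 8 arrays. Their mean was 9.98, 10.04, 9.48, 9.96 and 10.13 in the arrays labelled Abhd15 KO and 9.79, 9.86 and 10.01 in WT arrays. Without Dio2 it was 10.18 to 10.33 in WT arrays and 10.22 to 10.33 in 4 of the arrays labelled Abhd15 KO. In replicate 3 of that label it was 9.98. The mean of the 200 brightest genes from outside the mitochondrial genome was 11.119 in that array and between 11.090 and 11.130 in the 8 arrays, and the mean of its muscle markers was 5.91. The part of these markers in the high readings of ND1, ND4, CYTB and COX1 was not tested. Without that array 2 of the 7 differences were positive and 5 negative, with a median of −0.012.

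The tested genes whose pattern over the 8 arrays was most like the mean of the 7 transcripts were Stpg1 (Pearson r = 0.986, Spearman rho = 0.976), Gas8 (0.947, 0.905), Defb36 (0.946, 1), Smad5 (0.938, 0.857) and Ube2w (0.930, 0.762). Of 13216 genes compared, 17 had a Pearson r above 0.9 and 14 one below −0.9. Stpg1 and Defb36 had group means close to the dim limit of 2.88, at 3.20 and 3.02 log2 in the arrays labelled Abhd15 KO and 3.12 and 2.98 in WT arrays. The median r of the 23 other genes above 12 log2 with the mean of the 7 was −0.014.

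Nuclear genes that work with the 7 transcripts were compared as lists, and no member of any of them passed the adjusted threshold by limma. Over all tested genes 51.7% of differences were positive and the median was 0.006.

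**Figure D5:**
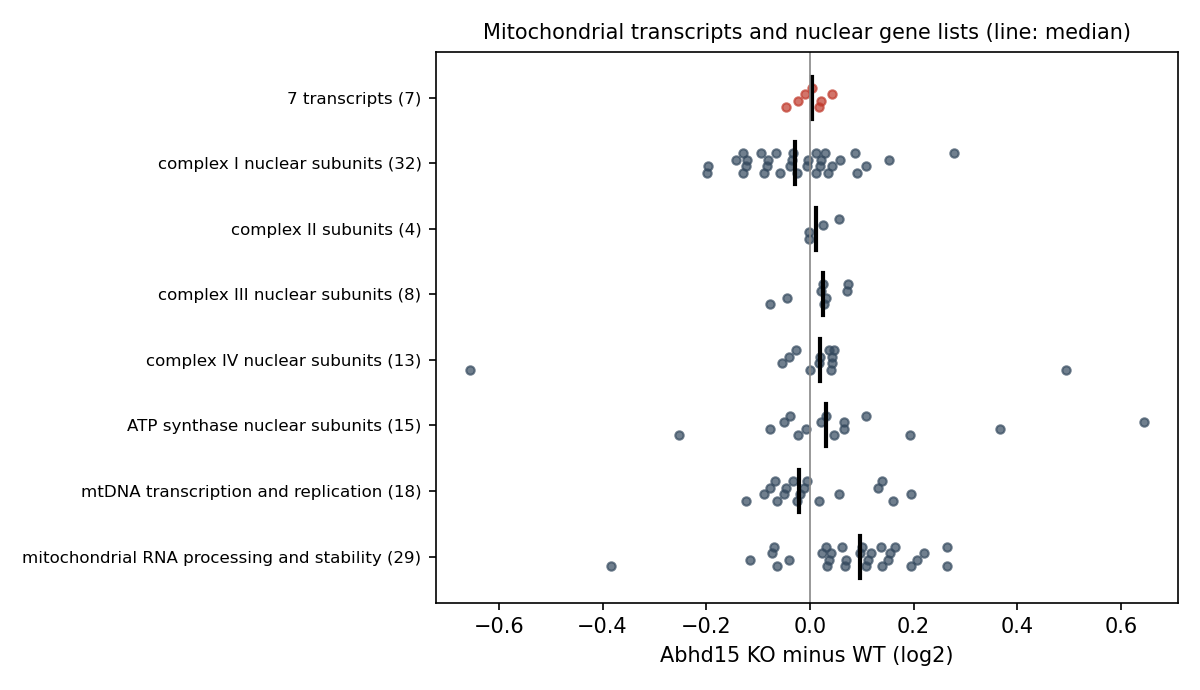
Difference Abhd15 KO minus WT (log2) of the 7 transcripts (red) and of each tested gene in 7 lists of nuclear genes (blue), with the number of genes in brackets and the median as a black line. The 7 transcripts lie between −0.047 and 0.043, and the list medians lie between −0.029 for complex I and 0.097 for mitochondrial RNA processing and stability.

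Nuclear partners of the ND subunits in complex I had 13 positive and 19 negative differences among 32 tested genes, with a median of −0.03. Ndufa7, an accessory subunit, read 7.26 ± 0.12 in the arrays labelled Abhd15 KO and 7.46 ± 0.13 in WT arrays (difference −0.20, −0.45 to 0.06), and Ndufb7, another accessory subunit, differed by −0.20 (−0.52 to 0.12). Complex II, which has no subunit encoded in mitochondrial DNA, had 2 positive and 2 negative differences with a median of 0.01. Its membrane anchors Sdhd and Sdhc differed by 0.06 (−0.17 to 0.28) and 0.03 (−0.20 to 0.25).

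Partners of CYTB in complex III had 6 positive and 2 negative differences and a median of 0.03. Uqcrc2, a core protein of that complex, differed by 0.07 (−0.15 to 0.29) and the small subunit Uqcr11 by −0.08 (−0.32 to 0.17). Partners of COX1 in complex IV had 9 positive and 4 negative differences and a median of 0.02. Cox7c read 6.10 ± 0.26 in the arrays labelled Abhd15 KO and 5.61 ± 0.22 in WT arrays, a difference of 0.49 (0.11 to 0.88, adjusted p = 0.9997 by limma). Cox6a2, the isoform of heart and skeletal muscle, read 5.92 ± 0.97 in the arrays labelled Abhd15 KO and 6.58 ± 1.28 in WT arrays and differed by −0.66 (−2.10 to 0.79), in the direction of the muscle markers given above.

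ATP synthase had 9 positive and 6 negative differences among its 15 nuclear subunits, with a median of 0.03. Atp5g1, a gene of the proton-carrying ring, read 3.14 ± 0.33 in the arrays labelled Abhd15 KO and 2.49 ± 0.28 in WT arrays. The WT mean was under the dim limit, so no difference is printed for Atp5g1. It is still counted among the 9 positive differences, in the median and in the figure. Atp5c1, a subunit of the rotating stalk, differed by 0.19 (−0.05 to 0.44). Assembly factors of complexes I, III and IV had 14 positive and 14 negative differences and a median of −0.00. Ndufaf1, an assembly factor of complex I, read 7.30 ± 0.07 in the arrays labelled Abhd15 KO and 7.09 ± 0.09 in WT arrays. Its difference was 0.21 (−0.02 to 0.44, adjusted p = 0.9997 by limma). It was the 1 of 28 assembly factors whose groups did not overlap, a share near the 2.77% of all tested genes. Cox14, which acts early in the assembly of COX1, differed by 0.21 (−0.13 to 0.55).

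Genes that copy and transcribe mitochondrial DNA had 6 positive and 12 negative differences among 18 tested, with a median of −0.02. Tk2, the mitochondrial thymidine kinase, differed by 0.16 (−0.09 to 0.41) and Polg2, the accessory subunit of the mitochondrial DNA polymerase, by 0.20 (−0.22 to 0.62). Genes for processing and stability of mitochondrial RNA had 23 positive and 6 negative differences among 29, with a median of 0.10 log2. Their residual SDs had a median of 0.163, and 1 of the 29 had an unadjusted p under 0.05, a share near the 3.99% of all tested genes. That gene, Gtpbp3, which modifies mitochondrial tRNAs, read 4.30 ± 0.20 in the arrays labelled Abhd15 KO and 4.69 ± 0.30 in WT arrays (difference −0.38, −0.75 to −0.01, adjusted p = 0.9997 by limma). Tbrg4, a FASTK-family protein of mitochondrial RNA, differed by 0.26 (−0.03 to 0.56).

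Regulators of mitochondrial biogenesis had 6 positive and 3 negative differences, with a median of 0.08. Yy1, a zinc finger transcription factor, differed by −0.20 (−0.44 to 0.05) and the coactivator Ppargc1b by 0.17 (−0.15 to 0.49). Among the brown adipocyte markers Prdm16 differed by −0.35 (−0.88 to 0.18) and Ppargc1a by 0.29 (−0.29 to 0.87). Among the muscle markers the slow troponin Tnnt1 differed by −0.87 (−1.83 to 0.09) and the fast troponin Tnnc2 by −0.91 (−2.30 to 0.48).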

How the data were processed

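Per the submitters' processing notes the deposited values are log2 intensities made by the authors with RMA and the oligo package, while the design text per the labels names Expression Console. RMA corrects background, quantile-normalizes and summarises per probe set, which hides a shift common to most genes. No genome build is named in the labels, and no coordinates are printed.

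The platform annotation named the probe sets (23521 with 1 symbol, 1814 with several, 16010 unnamed), set by Entrez identifier against RefSeq genes of GRCm38.p6 (23328 matched, 0 updated). A gene's highest-mean single-symbol probe set stood for it, which gave 22180 genes. The dim limit, 2.88 log2, is the 95th percentile of 1400 olfactory and vomeronasal receptor probe sets, and the 13223 genes that passed it in 3 or more arrays were tested with limma 3.58.1 in R 4.3.3 (lmFit, eBayes, Abhd15 KO minus WT). P-values were adjusted over all of them. The number of arrays limits the precision. The limma p-values rest on the spread between the 8 samples after it is drawn towards the prior from all genes. The step was tested on simulated data.

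The transcripts, lists and tests were chosen with earlier results of these data known. Genes named are the 7, other singly annotated mitochondrial genes, Ucp1, Abhd15, the 2 of lowest p per list, the 5 brightest others and the 5 most like the mean of the 7. Sdha, Fth1 and the single brown adipocyte markers Cidea, Cox7a1, Dio2, Elovl3, Plin1, Pparg and Adipoq were named after their values were seen. Alternatives were the replicate number as a block, filters, normalizations, variance models, probe set rules, a muscle covariate and leaving out each array. The replicate numbers were not taken to pair the arrays (correlations of same-numbered arrays −0.26, −0.098 and 0.019, of other pairings −0.18 to 0.39). These few values cannot exclude a shared litter or day.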

Additional observations from a re-analysis of the deposited data

Results flagged for a closer look

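Among 58 items checked in the 5 arrays labelled Abhd15 KO, 3 had an array far from the other 4. Chance passes the limit used in about 1 of 20 groups, a share close to 3 of 58. The 3 WT arrays are too few for that check. ND6 read 10.2 log2 in Abhd15 KO replicate 2 and 9.89 to 9.96 in the other 4. The mean of the 32 nuclear subunits of complex I was 9.07 in the same array and 8.93 to 8.95 in the other 4 of that label. In WT arrays it was 8.92 to 9.035, so the highest WT array was close to the marked one. The mean of the 7 transcripts in Abhd15 KO replicate 2 was 12.788, within the range of the other arrays. The mean of the brown adipocyte markers was 9.48 in Abhd15 KO replicate 3, 9.96 to 10.13 in the other 4 of that label and 9.79 to 10.01 in WT arrays. Of the 7 transcripts 0 were marked by this check, although replicate 3 was the highest array for 4 of them.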

How the results depend on the processing

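The count of genes past the threshold over all tested genes and the count among the 7 transcripts stayed at 0 under all 19 alternatives (11 settings and 8 single arrays left out), and the smallest adjusted p over all genes was 0.181, without WT replicate 1. The median difference of the 7 ran from −0.0105 to 0.011 over the settings and from −0.0122 to 0.0156 with arrays left out. ND1, ND4, ND4L and ND5 kept their sign throughout on the log2 scale. CYTB was negative when arrays were centred on their median (−0.0105) or on bright genes from outside the mitochondrial genome (−0.0081), and ran from −0.0122 to 0.0148 with arrays left out. ND3 ran from −0.0284 to 0.0156 and COX1 from −0.0005 to 0.0282 in the same way. ND4L was −0.103 without WT replicate 2. With arrays left out the residual SD ran from 0.0114 to 0.0163 for ND5, 0.0354 to 0.0440 for ND3, 0.0682 to 0.0908 for ND4L, 0.0226 to 0.0351 for ND4, 0.0163 to 0.0284 for ND1, 0.0182 to 0.0369 for CYTB and 0.0172 to 0.0408 for COX1, and the lowest value of the last 4 was without Abhd15 KO replicate 3. With the replicate number as a block the median was 0.0067 and 422 genes had an unadjusted p under 0.05 by limma, against 528. The block changed no call, and the numbers were not taken to pair the arrays. Without the dim limit 1019 of 22180 genes, and with each probe set on its own 1058 of 23143, had an unadjusted p under 0.05 by limma. Arrays give no read depth, and 0 calls among the 7 does not show that they were equal.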

Other observations

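The array highest in ND1, ND4, CYTB and COX1, Abhd15 KO replicate 3, was the lowest of the 8 arrays in 5 of the 11 brown adipocyte markers, which were looked at 1 by 1 after their values were seen. The share of all tested genes that were lowest in this array is not given here, so whether 5 of 11 is unusual for it cannot be said. Dio2, the enzyme that activates thyroid hormone in brown fat, read 4.47 there and 7.10 to 8.32 in the other 4 arrays of that label, with 5.57, 6.63 and 6.80 in WT replicates 1 to 3. The other markers lowest there were the fatty acid elongase Elovl3 (9.44), the coactivator Ppargc1a (7.94), the lipid droplet protein gene Plin1 (9.50) and the complex IV subunit Cox7a1 (10.89). Fabp4 (12.70) and Adipoq (8.997) were at their highest in this array. Of the remaining 4 markers, Ucp1 (12.519) was lower in WT replicate 2 (12.510), Prdm16 (5.11) was lower in Abhd15 KO replicate 1 (4.95), and Cidea (12.145) and Pparg (10.61) lay inside the range of the other arrays. The values are those of 1 mouse.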
